A study of Mus musculus with 12 samples.

Results

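The data of 6 genes of the excitatory synapse are given: the 4 genes of the PSD-95 family (Dlg1, Dlg2, Dlg3 and Dlg4) and 2 genes for the IQSEC exchange factors of the small GTPase Arf (Iqsec1 and Iqsec2). They were picked by gene symbol, and not by their values, from the 55573 genes of the count table. All 6 passed the filter on low counts (a mean of 10 after normalization) and were among the 17126 genes tested. The 12 RNA libraries came from hippocampal neurons that were taken from newborn C57BL/6 mice and cultured for 14 days. The libraries formed 4 groups of 3: Input, which is RNA of the whole lysate with no antibody, and the RNA recovered by RNA immunoprecipitation (RIP) with an antibody against endogenous YTHDF1, YTHDF2 or YTHDF3. All cultures were of the same strain and carried no deletion or drug treatment that differed between groups. By the methods, each replicate's lysate was split over the 3 RIPs and shared 1 input. Hippocampi of a litter were pooled for culture, cytosine arabinoside was used against dividing glia, and the groups analysed include no control-antibody RIP, so binding of RNA to beads or antibody was not measured.

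PSD-95 family proteins are membrane-associated guanylate kinases (MAGUKs), scaffolds that hold receptors, channels and adhesion proteins in the postsynaptic density through their PDZ domains. IQSEC1 and IQSEC2 load Arf proteins, in particular ARF6, with GTP, which steers membrane traffic at the synapse, and IQSEC2 is held in the postsynaptic density by PDZ scaffolds. YTHDF proteins are cytoplasmic readers that bind N6-methyladenosine (m6A) in RNA, a mark found mainly near stop codons and in 3′ UTRs, often within the letters GGACT of the gene. The comparisons ask which of the 6 RNAs were more or less abundant in each reader's RIP than in the lysate, and whether the 3 readers differed.

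Dlg4 encodes PSD-95, the central scaffold of the excitatory synapse, and lies on the plus strand at chr11:70016942-70047522 (build GRCm38). Dlg1 (SAP97; chr16:31663443-31875129), Dlg2 (PSD-93; chr7:90476672-92449247) and Dlg3 (SAP102; chrX:100767722-100818410) are on the plus strand too. Iqsec1 is on the minus strand at chr6:90656088-90988685 and Iqsec2 on the plus strand at chrX:152144268-152225236. The letters GGACT were searched on the sense strand of each gene's principal transcript in the reference annotation (GENCODE M21), and the match closest to the stop codon is shown with 12 bases on each side, because this is where m6A is usually found. Capitals mark the motif.
Dlg1: ggacacgtgccaGGACTaaccatggaggt
Dlg2: gtcctgtgtggaGGACTaaccttagagag
Dlg3: gagaagagaggaGGACTgatggaaagaca
Dlg4: ctggcttggcctGGACTcaccctgcctcc
Iqsec1: cctaggacccgaGGACTgcctgtggcctc
Iqsec2: actcagtgaatgGGACTctggcccgcagt

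The Dlg4 window lies at chr11:70044704-70044732 in exon 20 of 20, in the 3′ UTR, and its motif starts 21 bases after the stop codon. The Iqsec1 window (chr6:90660951-90660979, minus strand, exon 14 of 14) is the closest to a stop codon, at 14 bases into the 3′ UTR. The windows of Dlg1 (chr16:31872374-31872402, exon 26 of 26), Dlg2 (chr7:92445174-92445202, exon 23 of 23) and Dlg3 (chrX:100816639-100816667, exon 19 of 19) are also in 3′ UTRs, with the motif 605, 569 and 326 bases after the stop codon. Iqsec2 differs, since its closest match (chrX:152221710-152221738, exon 13 of 14) is in the coding sequence, 112 bases before the end of the stop codon. The Dlg1 and Dlg2 windows share a run of 10 bases that includes the motif, the longest run shared by any of the 15 pairs of windows. A match is a description of the letters and not a methylated site, and methylation was not measured in these libraries.

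The principal transcripts of the 6 genes ran from 3488 nt (Dlg4) to 8036 nt (Iqsec1), with a median of 5068.5 nt, against 3154 nt over the 13404 protein-coding transcripts of tested genes. GGACT occurred 4 times in Dlg1, 7 times in each of Dlg2 and Dlg4, 8 times in each of Dlg3 and Iqsec2 and 14 times in Iqsec1. The median over all 13404 transcripts was 3, and 92.1% held at least 1. Per kilobase, Dlg4 had the highest density of the 6 (2.01) and Dlg1 the lowest (0.858). The median over all transcripts was 1.04, and Dlg2 (0.935) was below it too.

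Total counts were 6020072 to 38909592 per library, and the smallest count of any of the 6 genes in any library was 208 (Dlg1). For the genes other than Dlg1, counting error was small beside the spread between replicates. Dlg1 had the lowest counts and the smallest spread (coefficient of variation 6.56% in the YTHDF3 RIP), so counting error was a larger part of it. The libraries labelled as neurons held neuronal markers (Rbfox3, Tubb3, Syt1, Snap25, Syn1), summing to 634 to 2200 counts per 1000000 (CPM), and none of these 5 was at 0 in a group. That sum was lower in every YTHDF2 library (634 to 1079 CPM) than in every Input (1267 to 2029 CPM), YTHDF1 (1169 to 1907 CPM) or YTHDF3 library (1083 to 2200 CPM). Fibroblast markers (Col1a1, Col1a2, Dcn) were higher in every YTHDF2 library (67.0 to 109 CPM) than in every Input library (4.26 to 58.1 CPM). Astrocyte markers (5 genes) summed to 193 to 2517 CPM and oligodendrocyte-lineage markers (5 genes) to 49.3 to 1323 CPM, the highest in YTHDF1 replicate 1. Microglial and endothelial markers reached at most 6.21 CPM. Inhibitory-neuron markers (Gad1, Gad2, Slc32a1) were lowest within each group in Input replicate 3 (155 CPM), YTHDF1 replicate 2 (165 CPM), YTHDF2 replicate 2 (93.3 CPM) and YTHDF3 replicate 3 (150.5 CPM), against 272 to 653 CPM in the other 8 libraries. Those low libraries were also the lowest of their group for Dlg2, Dlg3, Iqsec1 and Iqsec2, and their part in the results was not tested. Between lysates, fewer cells of a type and less RNA per cell cannot be told apart in bulk RNA. By the methods the 4 groups came from shared lysates, but whether numbers 2 and 3 name the same lysate in all groups is uncertain. A marker difference between groups was measured on recovered RNA and is not a count of cells. Its cause was not tested.

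**Figure D1:**
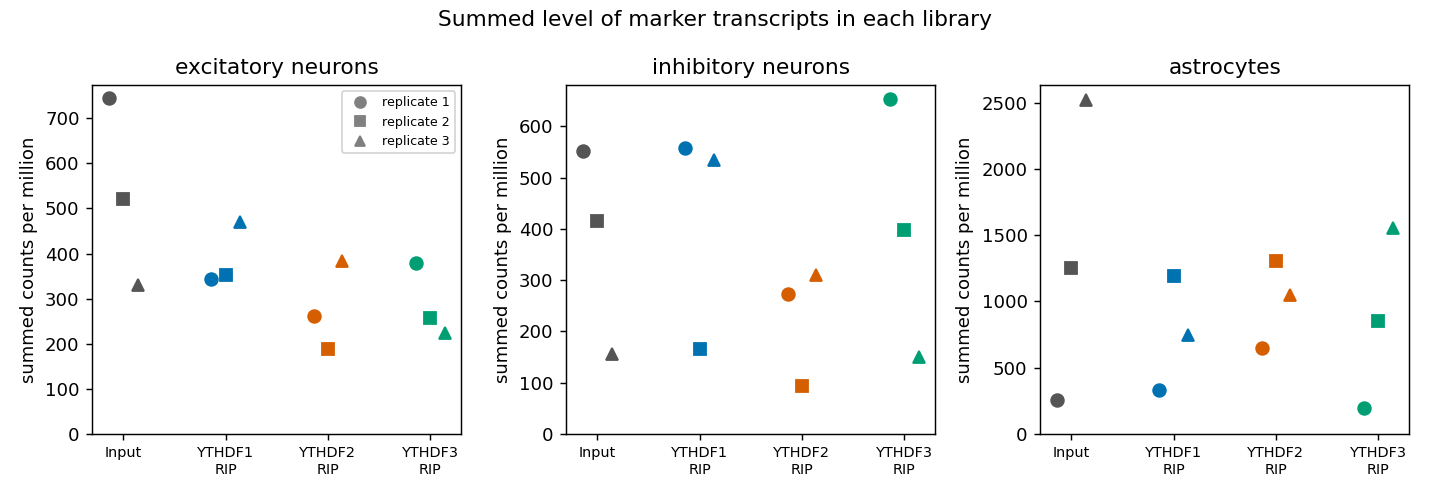
Summed CPM (vertical axis) of the markers of excitatory neurons, inhibitory neurons and astrocytes in each library, with the 4 groups on the horizontal axis and the marker shape giving the replicate number. Inhibitory markers were lowest in Input replicate 3 (155 CPM) and YTHDF3 replicate 3 (150.5 CPM) but in replicate 2 of the YTHDF1 and YTHDF2 RIPs, and astrocyte markers ranged from 193 to 2517 CPM.

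Dlg4 RNA was higher in the YTHDF1 RIP than in the YTHDF2 and YTHDF3 RIPs, by calls that depended on the libraries and settings used. In Input its normalized level was 450.3, 417 and 276 CPM in replicates 1, 2 and 3. In the YTHDF1 RIP it was 331, 416 and 743 CPM, in the YTHDF2 RIP 175, 122 and 253 CPM, and in the YTHDF3 RIP 291, 211 and 122 CPM. All 3 YTHDF2 libraries and 2 of the 3 YTHDF3 libraries lay below every input library, whereas the YTHDF1 libraries spread from within the input range to above it. Every YTHDF1 library lay above every YTHDF2 and every YTHDF3 library.

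Between readers, Dlg4 was 2.71-fold higher in the YTHDF1 than in the YTHDF2 RIP (log2 difference 1.44 ± 0.40 SE, edgeR quasi-likelihood adjusted p = 0.0199). It was 2.38-fold higher in the YTHDF1 than in the YTHDF3 RIP (1.254 ± 0.397, edgeR adjusted p = 0.0422). These were the only calls between readers among the 6 genes, where a call needed a 2-fold difference and an adjusted p of at most 0.05. Dlg4 was not called for YTHDF2 against YTHDF3 (-0.18 ± 0.39, edgeR adjusted p = 0.824). The count of 1 of 6 for YTHDF1 over YTHDF2 stood against 11.4% of all genes called higher and 6.1% called lower. For YTHDF1 over YTHDF3 it stood against 10.8% higher and 3.63% lower. Groups that did not overlap, with YTHDF1 above, were seen for Dlg3 and Dlg4 against YTHDF2 (background 20.4% of all genes) and for Dlg4 against YTHDF3 (20.9%). The call against YTHDF2 was lost without YTHDF1 replicate 3 (1.03, adjusted p = 0.0879), YTHDF2 replicate 1 (adjusted p = 0.0676) or YTHDF2 replicate 2 (adjusted p = 0.0831). The call against YTHDF3 was lost in 8 of the 12 fits that left out 1 library, with 0.84 and an adjusted p of 0.153 without YTHDF1 replicate 3, and both were lost when scaled by library size alone (0.96 and 0.53) or when the trend with gene length was removed (0.73 and 0.73). With the replicate number as a block over all libraries, which the methods tie to a shared lysate, the call against YTHDF2 was kept (1.45, edgeR adjusted p = 0.0339) and the call against YTHDF3 was lost (1.24, edgeR adjusted p = 0.0765). In all, the call against YTHDF3 was lost in 8 of 11 further alternatives.

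Against Input, Dlg4 gave no call in any RIP in the fit of all 12 libraries, where a call needed a log2 difference of at least 0.32. The log2 difference was 0.38 ± 0.39 (adjusted p = 0.436) for YTHDF1, -1.06 ± 0.40 (adjusted p = 0.0576) for YTHDF2 and -0.87 ± 0.39 (adjusted p = 0.101) for YTHDF3, all by edgeR. The YTHDF2 value was close to the threshold: it was called lower in 9 of 11 other settings and in 6 of 12 fits that left out 1 library, with adjusted p from 0.00202 to 0.176 over these 23. The sum of neuronal markers was lower in the YTHDF2 libraries as well, as given above, and its part in the lower Dlg4 and Dlg2 values was not tested. Libraries of the YTHDF3 RIP and Input with the same replicate number deviated together from their group means (correlation 0.528 to 0.829 across genes), and a fit that compared each YTHDF3 library with its own input is therefore given beside the first. In it Dlg4 was 1.83-fold lower in the YTHDF3 RIP (-0.87 ± 0.10, edgeR adjusted p = 3.21e-08). Its log2 ratio to the same-number input was -0.63, -0.98 and -1.17 in replicates 1, 2 and 3, below 0 each time.

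**Figure D2:**
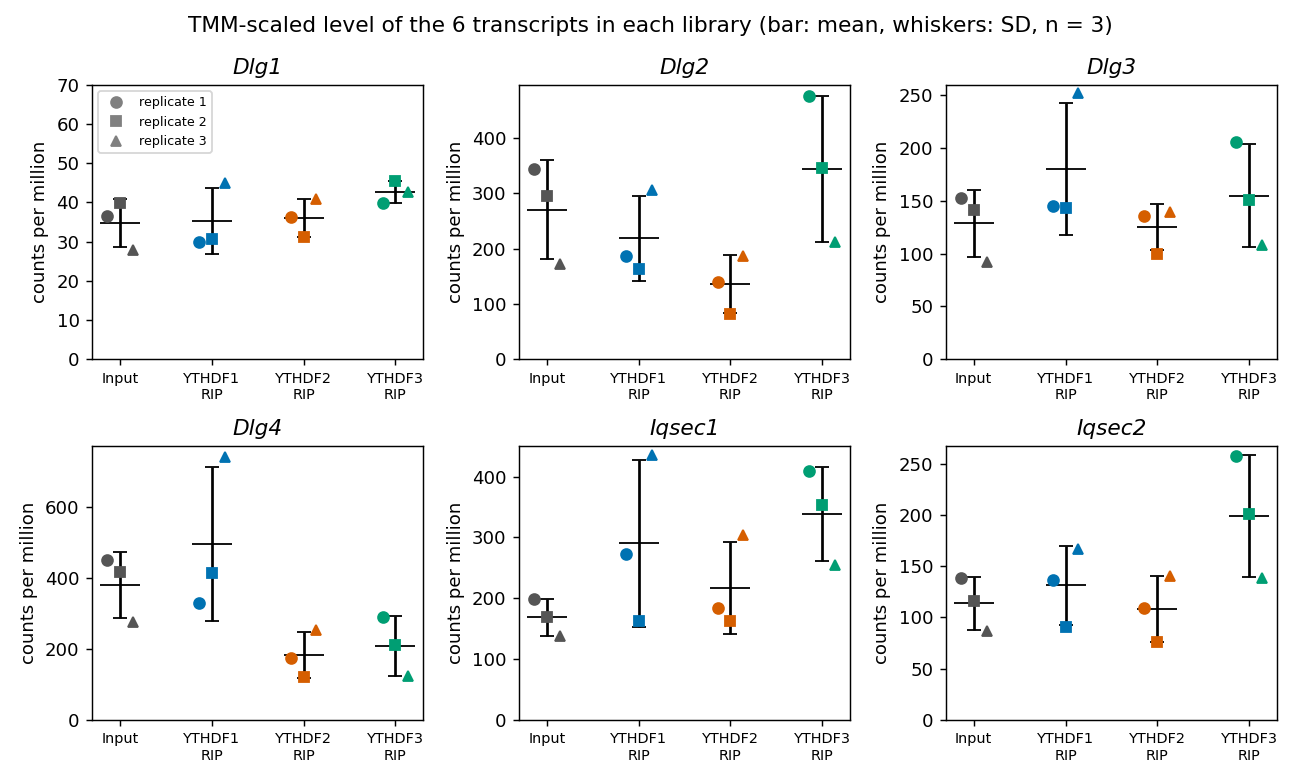
Normalized level (CPM, vertical axes) of each of the 6 genes, with the 4 groups of 3 libraries on the horizontal axis, points as libraries and bars as the group mean ± SD. Dlg4 lay at 331 to 743 CPM in the YTHDF1 RIP and at 122 to 253 CPM in the YTHDF2 RIP, whereas Dlg1 stayed between 28.0 and 45.5 CPM throughout.

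Count ratios of Dlg4 to the other 5 genes within the same library need no scaling between libraries. They were added after the values had been seen, use the same Dlg4 counts as the fits above and are a description only. The log2 ratio of Dlg4 to Iqsec1 counts was 1.19, 1.30 and 1.00 in the input libraries and 0.28, 1.36 and 0.77 in those of YTHDF1. It was -0.08, -0.42 and -0.26 in the YTHDF2 libraries and -0.49, -0.74 and -1.06 in the YTHDF3 libraries. All YTHDF2 and YTHDF3 values lay below all Input and YTHDF1 values. The ratio to Dlg3, whose spread in Input was the smallest (1.56, 1.57 and 1.58, SD 0.0119), was 0.36, 0.29 and 0.86 in the YTHDF2 libraries and 0.50, 0.48 and 0.17 in those of YTHDF3, below every input library.

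The ratio of Dlg4 to each of the 5 other genes was lower in the YTHDF3 RIP than in Input with no overlap, in 5 of 5 cases, with log2 differences of -1.18 (Dlg3) to -1.93 (Iqsec1). Taken to every other tested gene, 45.6% of such ratios did the same. In the YTHDF2 RIP 4 of 5 ratios lay below Input (background 49.9%), the exception being the ratio to Dlg2 (-0.08 ± 0.11 SE). The YTHDF1 RIP lay above the YTHDF2 RIP in 5 of 5 ratios (background 56.3%) and above the YTHDF3 RIP in 5 of 5 (43.1%). With shares this high over all genes, these counts are no result about the 5 partners. Between the YTHDF2 and YTHDF3 RIPs, 3 of 5 ratios (to Dlg2, Iqsec1 and Iqsec2) were higher with YTHDF2, against 3.91% of the ratios to all genes. The exact two-sided permutation test gave p = 0.1 for each ratio with no overlap, the smallest that 3 against 3 libraries allow (0.125 adjusted over 30 tests), so none could pass 0.05.

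**Figure D3:**
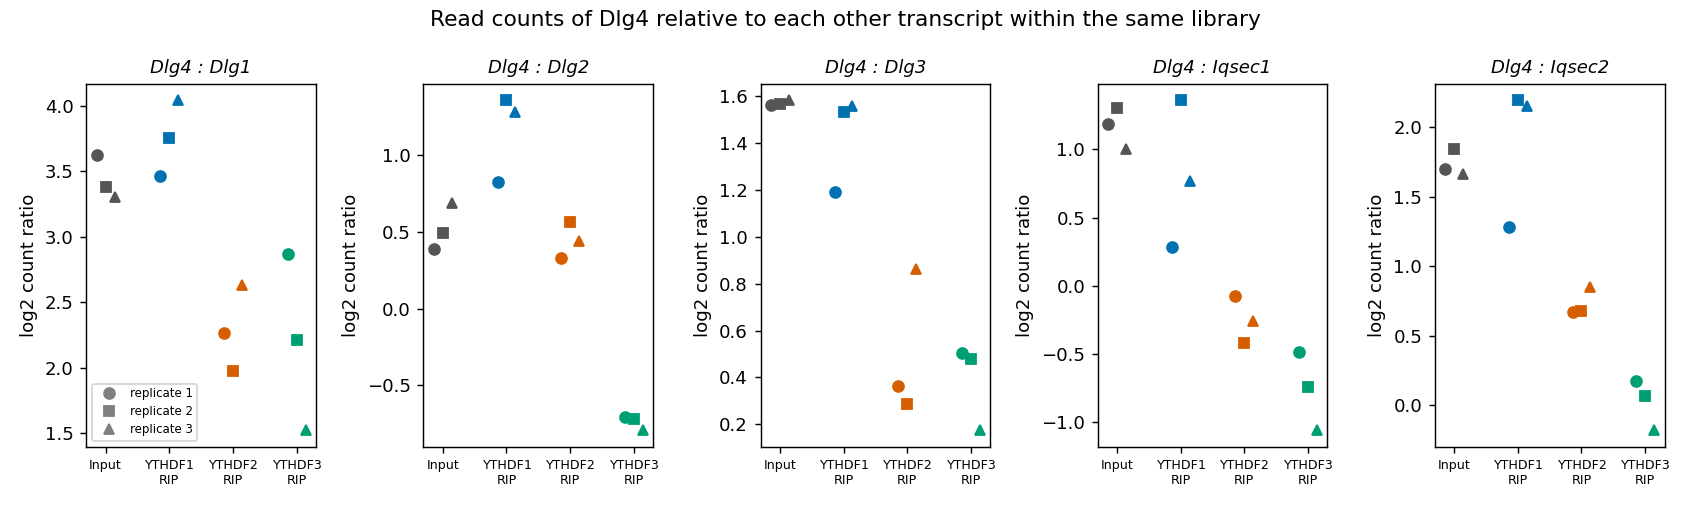
Log2 ratio of Dlg4 counts to those of each other gene (vertical axes) in every library, with the 4 groups on the horizontal axis. The YTHDF1 points lie above the YTHDF2 and YTHDF3 points in all 5 panels, and the 3 YTHDF3 values of the ratio to Iqsec1 run from -1.06 to -0.49 against 1.00 to 1.30 in Input.

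Dlg2 encodes PSD-93, a close relative of PSD-95 that also binds NMDA receptors and potassium channels. Its level was 345, 296 and 171 CPM in Input, 187, 162 and 306 CPM in the YTHDF1 RIP, 139, 82.3 and 186 CPM in the YTHDF2 RIP and 476, 346 and 212 CPM in the YTHDF3 RIP. Every YTHDF2 library lay below every YTHDF3 library, and the other groups overlapped. In the fit of all libraries no difference was called: -0.99 ± 0.39 (edgeR adjusted p = 0.0714) for YTHDF2 against Input, -1.34 ± 0.40 (adjusted p = 0.0599) for YTHDF2 against YTHDF3 and 0.35 ± 0.39 (adjusted p = 0.511) for YTHDF3 against Input. For YTHDF2 against YTHDF3, 0 of the 6 genes were called (3.95% of all genes higher and 1.16% lower), with 2 at an unadjusted p under 0.05 and 1 called by DESeq2, and Dlg2 alone of the 6 did not overlap, as did 14% of all genes in that direction. Dlg2 was called lower for YTHDF2 against YTHDF3 in 7 of 11 other settings and in 3 of 12 fits that left out 1 library. For YTHDF2 against Input, Dlg2 was called lower in 5 of 11 and 1 of 12. The YTHDF1 RIP gave -0.31 ± 0.39 against Input (edgeR adjusted p = 0.531) and -0.66 ± 0.39 against YTHDF3 (edgeR adjusted p = 0.260). These were called lower in 2 of 11 and 3 of 11 other settings, and in 0 of 12 fits that left out 1 library. With the length trend removed they were -1.67 (edgeR adjusted p = 0.00188) and -1.29 (edgeR adjusted p = 0.0185). In the same-number fit Dlg2 was 1.31-fold higher in the YTHDF3 RIP (0.39 ± 0.09, edgeR adjusted p = 0.000706), but the call was lost without replicate 1 (0.27) and when scaled over protein-coding genes (0.23), and with the length trend removed the value turned to -0.40. Dlg2 shared 75 exonic bases with Gm45159 on the same strand, whose count was at most 7.91% of that of Dlg2 in any library.

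Dlg3 encodes SAP102, the member of the family that is prominent early in synapse development. It measured 153, 141 and 92.1 CPM in Input, 145, 143 and 252 CPM in the YTHDF1 RIP, 136, 99.9 and 139 CPM in the YTHDF2 RIP and 205, 151 and 108 CPM in the YTHDF3 RIP. Each RIP overlapped Input, and the log2 differences from Input were 0.49 ± 0.30, -0.04 ± 0.30 and 0.27 ± 0.30 for YTHDF1, YTHDF2 and YTHDF3. The 95% interval for YTHDF2 ran from -0.70 to 0.62, so changes within that range were not excluded. In the same-number fit the YTHDF3 difference was 0.31 ± 0.09 (edgeR adjusted p = 0.00422), just short of the 0.32 that a call needed.

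Dlg1, for SAP97, a scaffold that also serves in cell polarity and in receptor delivery, had no call in the fit of all libraries. It measured 36.5, 40.0 and 28.0 CPM in Input, 30.0, 30.7 and 45.1 CPM in the YTHDF1 RIP, 36.3, 31.1 and 40.8 CPM in the YTHDF2 RIP and 39.9, 45.5 and 42.7 CPM in the YTHDF3 RIP. The groups overlapped, except that 2 of the 3 YTHDF3 libraries were above all input libraries. The differences from Input were 0.02 ± 0.20, 0.05 ± 0.21 and 0.29 ± 0.20 on the log2 scale, with 95% intervals that lay within -0.43 to 0.74. In the same-number fit it was 1.28-fold higher in the YTHDF3 RIP (0.36 ± 0.11, edgeR adjusted p = 0.00714), but the call was lost without replicate 3 (0.18, adjusted p = 0.198), with DESeq2 size factors (0.31) and when scaled over protein-coding genes (0.19), and the value turned to -0.25 with the length trend removed.

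Iqsec1, for the exchange factor BRAG2 that acts on ARF6 beside glutamate receptors, was the 1 gene of the 6 that was called against Input in the fit of all libraries. It measured 198, 169 and 138 CPM in Input and 408, 353 and 255 CPM in the YTHDF3 RIP. In the YTHDF1 RIP it measured 272, 162 and 436 CPM and in the YTHDF2 RIP 184, 163 and 303 CPM. All 3 YTHDF3 libraries lay above all input libraries, while the YTHDF1 and YTHDF2 libraries overlapped them. Iqsec1 was 2.01-fold higher in the YTHDF3 RIP (1.01 ± 0.35, edgeR adjusted p = 0.0408). The call was lost in 6 of the 12 fits that left out 1 library (without any 1 of the input libraries, YTHDF2 replicate 1, or YTHDF3 replicate 1 or 2; adjusted p up to 0.117), and with the length trend removed (0.42, adjusted p = 0.335). In the same-number fit it was 2.08-fold higher (1.06 ± 0.10, edgeR adjusted p = 8.52e-10), with log2 ratios of 1.04, 1.06 and 0.89 in replicates 1, 2 and 3. For YTHDF1 the difference was 0.78 ± 0.35 (adjusted p = 0.0815) and for YTHDF2 0.36 ± 0.35 (adjusted p = 0.448).

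Iqsec2, for BRAG1, the exchange factor that binds PSD-95 family scaffolds, followed Iqsec1. It measured 138, 116 and 87.1 CPM in Input, 136, 90.7 and 167 CPM in the YTHDF1 RIP, 109.6, 76.0 and 140.2 CPM in the YTHDF2 RIP and 258, 201 and 139 CPM in the YTHDF3 RIP. The lowest YTHDF3 library was just above the highest input library (139 against 138 CPM), and the other RIPs overlapped Input. The log2 difference was 0.81 ± 0.31 for YTHDF3 (edgeR adjusted p = 0.0589), 0.21 ± 0.31 for YTHDF1 and -0.07 ± 0.31 for YTHDF2. The YTHDF3 value was called higher in 7 of 11 other settings and in 2 of 12 fits that left out 1 library. In the same-number fit Iqsec2 was 1.80-fold higher in the YTHDF3 RIP (0.85 ± 0.09, edgeR adjusted p = 2.1e-08), with log2 ratios of 0.90, 0.80 and 0.67.

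Counted over the 6 genes, the fit of all libraries called 0 in the YTHDF1 RIP, where 27.2% of all genes were higher and 25.8% lower than Input, with 1 gene (Iqsec1) at an unadjusted p under 0.05 and 0 called by DESeq2. It called 0 in the YTHDF2 RIP (15.7% of all genes higher, 19% lower), with 2 genes (Dlg2 and Dlg4) at an unadjusted p under 0.05 and 2 called by DESeq2, and only Dlg4 of the 6 lay below Input without overlap, as did 27.5% of all genes. In the YTHDF3 RIP it called 1 higher and 0 lower (16.4% and 23% of all genes), and Iqsec1 and Iqsec2 lay above Input without overlap, as did 26.6% of all genes. The same-number fit of YTHDF3 against Input called 5 of 6, Dlg4 lower and Dlg1, Dlg2, Iqsec1 and Iqsec2 higher, where 36.3% of all genes were higher and 32.2% lower. It called 4 to 6 when 1 pair was left out, and 3 (Dlg4, Iqsec1 and Iqsec2) when scaled over protein-coding genes. Tested for any difference among the 3 readers, 1 of 6 passed (Dlg4, edgeR adjusted p = 0.0226), against 32.3% of all genes, and Dlg2 had an adjusted p of 0.0543.

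**Figure D4:**
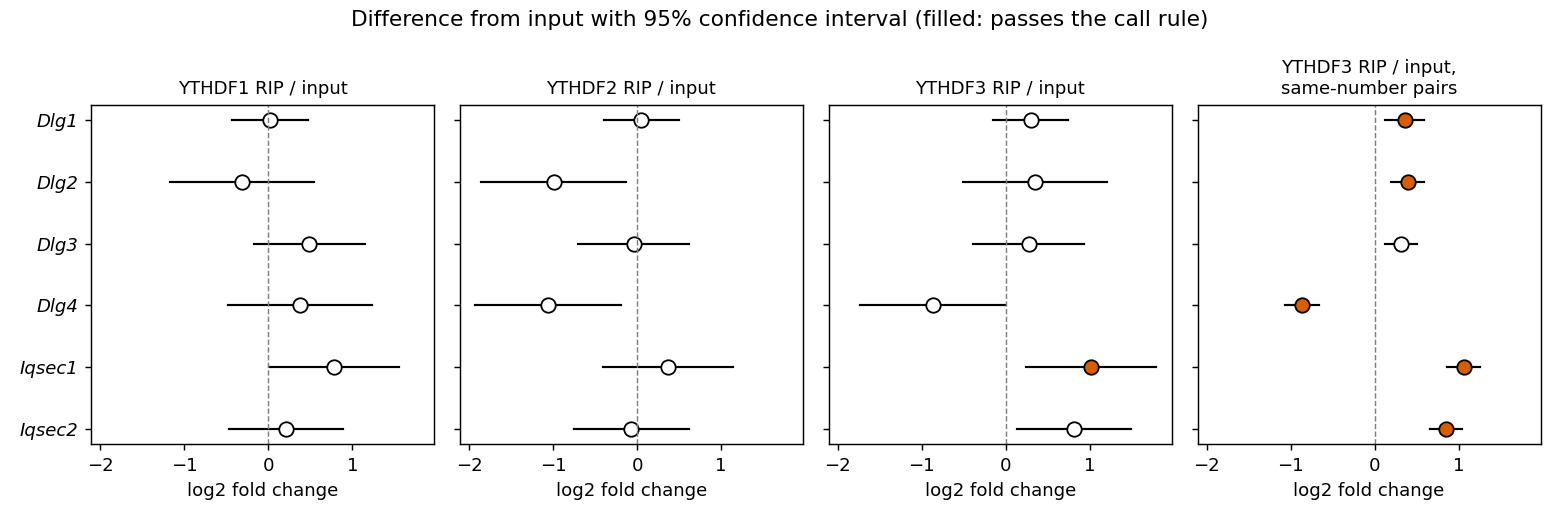
Log2 difference from Input (horizontal axis) of the 6 genes in each RIP, with points as edgeR estimates and lines as 95% intervals. Iqsec1 in the YTHDF3 RIP (1.01) is called, and Dlg4 is at 0.38 with YTHDF1, -1.06 with YTHDF2 and -0.87 with YTHDF3.

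Per kilobase of exonic length, the order of the 6 RNAs changed between groups, apart from Dlg1, which was lowest in all 4 (3.24 to 3.98 CPM per kb) and the only gene whose 3 values did not overlap those of its neighbour in the order. Dlg4 had the highest level in Input (28.8 ± 6.97 CPM per kb, SD, n = 3) and in the YTHDF1 RIP (37.5 ± 16.4), ranked 4 of 6 with YTHDF2 (13.8 ± 4.97) and 5 of 6 with YTHDF3 (15.7 ± 6.37). Dlg3 led in the YTHDF2 RIP (21.4 ± 3.71) and Iqsec1 in the YTHDF3 RIP (29.2 ± 6.69), just ahead of Iqsec2 (28.5 ± 8.53). All neighbours in these orders other than Dlg1 overlapped. The exonic length used here joins all annotated exons. It was 13251 bases for Dlg4 and 11601 for Iqsec1, against 3488 and 8036 nt for their principal transcripts. The ranks, and their change between groups, therefore hold for the joined length only and can differ with another length. They were not worked out per kilobase of principal transcript.

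Across the 12 libraries the levels of Iqsec1 and Iqsec2 varied together (Pearson r = 0.892 of log2 CPM), and so did Dlg2 and Iqsec2 (r = 0.852), whereas Dlg4 varied little with Dlg1 (r = 0.0831), Iqsec1 (r = 0.218) or Iqsec2 (r = 0.224). These values describe 12 libraries that share lysates and group differences. Among 9948 protein-coding genes whose mean normalized count reached 100, the patterns most like that of Dlg4 were those of Chgb (r = 0.959) and Fgf12 (r = 0.956). Those most like Dlg2 were Gabra4 (r = 0.976) and Rgs7bp (r = 0.971), and those most like Dlg3 were Osbpl6 (r = 0.971) and Impact (r = 0.961). Iqsec1 was closest to Gak (r = 0.975) and Kcnd1 (r = 0.974), Iqsec2 to Grid1 (r = 0.968) and Ocrl (r = 0.965), and Dlg1 to Cstf2 (r = 0.877) and 2610507B11Rik (r = 0.861).

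Genes around PSD-95 and the Arf cycle are given as lists, by counts and medians, with no test between lists. Beside each count of higher and lower genes stand the same shares over all genes: 27.2% and 25.8% with YTHDF1, 15.7% and 19% with YTHDF2 and 16.4% and 23% with YTHDF3. The list named PSD-95 ligands held 26 genes for adhesion proteins, receptors, channels and other proteins associated with the scaffold. Direct binding to PSD-95 was not examined for each. Of these 26, 16 were higher and 1 lower than Input with YTHDF1 (median log2 difference 1.09, against 0.02 over all genes). The counts were 6 and 1 with YTHDF2 (0.34 against 0.02) and 12 and 1 with YTHDF3 (0.81 against 0.05). The adhesion protein gene Nlgn3 rose most with YTHDF1 (3.03 ± 0.20), followed by Kcnj4, for an inwardly rectifying potassium channel (2.89 ± 0.78). With YTHDF2 they were Kcnj4 (2.25 ± 0.76) and Lrfn5 (1.52 ± 0.20), and with YTHDF3 Kcnj4 (1.37 ± 0.74, adjusted p = 0.165, not called) and Lrfn1 (1.26 ± 0.22), where Lrfn1 and Lrfn5 encode synaptic adhesion proteins. Cript, for a small protein that binds the PDZ domains of PSD-95, was the lowest gene of the list in each RIP (-2.34, -1.86 and -2.38) and was called each time. With the length trend removed the 3 medians were 0.36, 0.06 and 0.41.

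Palmitate sets the hold of PSD-95 on the membrane. Action on PSD-95 was not examined for each gene of the list named PSD-95 palmitoylation. This list held 9 genes for enzymes that attach palmitate to proteins or remove it. Of these, 1 was higher and 3 lower with YTHDF1, 0 and 4 with YTHDF2 and 0 and 2 with YTHDF3, with medians of -0.17, -0.44 and -0.16. The YTHDF3 median turned to 0.18 with library size scaling alone. The depalmitoylase genes Abhd17c and Abhd17a stood at the ends with YTHDF1 (0.61 ± 0.17, higher, and -1.87 ± 0.25, lower), and Abhd17a was lowest with YTHDF3 as well (-1.75 ± 0.25). Zdhhc15, for a palmitoyltransferase, was lowest with YTHDF2 (-1.94 ± 0.35). Zdhhc17 (0.48, 0.32 and 0.60), Zdhhc8 (0.02 with YTHDF2) and Zdhhc5 (0.33 with YTHDF3) were the other highest values and were not called.

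Of the 15 other MAGUK genes, 9 were higher and 0 lower with YTHDF1, 4 and 1 with YTHDF2 and 6 and 0 with YTHDF3 (medians 0.88, 0.35 and 0.61). Scaling over protein-coding genes left 6 higher and 1 lower with YTHDF1, and with the length trend removed the YTHDF2 median was -0.01. Dlg5 was higher with all 3 readers (1.83 ± 0.27, 1.48 ± 0.27 and 1.26 ± 0.27). The lowest values, Mpp1 with YTHDF1 (-0.43), Mpp6 with YTHDF2 (-0.75) and Mpp2 with YTHDF3 (-0.47), were not called.

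Of the 12 other Arf exchange factor genes tested (Psd4 was too low), 5 were higher and 0 lower with YTHDF1, 3 and 0 with YTHDF2 and 5 and 1 with YTHDF3 (medians 0.68, 0.48 and 0.76). With the length trend removed the YTHDF1 median was -0.03. Arfgef3 (1.92 ± 0.50) and Arfgef2 (1.58 ± 0.21) led with YTHDF1, Cyth1 (0.85 ± 0.27) and Arfgef2 (0.82 ± 0.20) with YTHDF2, and Arfgef1 (1.27 ± 0.21) and Arfgef2 (1.15 ± 0.20) with YTHDF3. These are guanine nucleotide exchange factors or, for Arfgef3, a relative of them. The lowest were Cyth2 with YTHDF1 (-0.57, not called) and YTHDF3 (-0.81 ± 0.22, lower) and Psd3 with YTHDF2 (-0.83, not called).

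Of the 6 Arf GTPase genes, which the exchange factors act upon, 5 were lower and 1 higher with YTHDF1, 5 lower with YTHDF2 and 4 lower with YTHDF3 (medians -1.23, -1.11 and -1.37, at most -0.96 under each scaling tried and with the length trend removed). Arf4 was lowest in each RIP (-1.99 ± 0.33, -1.81 ± 0.33 and -2.19 ± 0.33). Arf6, the main substrate of the IQSEC factors, was the exception: it was higher with YTHDF1 (1.00 ± 0.20) and stood at 0.32 ± 0.20 and -0.02 ± 0.20 with YTHDF2 and YTHDF3 without a call. The next in order were Arf3 with YTHDF1 (-0.91 ± 0.28, lower), Arf2 with YTHDF2 (-0.76 ± 0.25, lower) and Arf3 with YTHDF3 (-0.29, not called).

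Of the 19 Arf GTPase-activating protein genes tested (Acap1 and Adap2 were too low), which switch Arf proteins off, 5 were higher and 1 lower with YTHDF1, 3 and 2 with YTHDF2 and 5 and 0 with YTHDF3. The medians were 0.33, 0.11 and 0.36, against 0.02, 0.02 and 0.05 over all genes. The YTHDF1 median was -0.08 with library size scaling alone and -0.13 with the length trend removed. Agap2, for a GTPase-activating protein found in dendrites, was higher with YTHDF1 (1.30 ± 0.37) and YTHDF3 (1.14 ± 0.37), and Arap2 with all 3 (1.22 ± 0.33, 1.30 ± 0.33 and 1.41 ± 0.33). Arap1 had the highest value with YTHDF2 (1.32) without a call. The lowest were Smap2 with YTHDF1 (-0.56 ± 0.19, lower) and YTHDF3 (-0.49, not called) and Smap1 with YTHDF2 (-1.08 ± 0.19, lower).

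**Figure D5:**
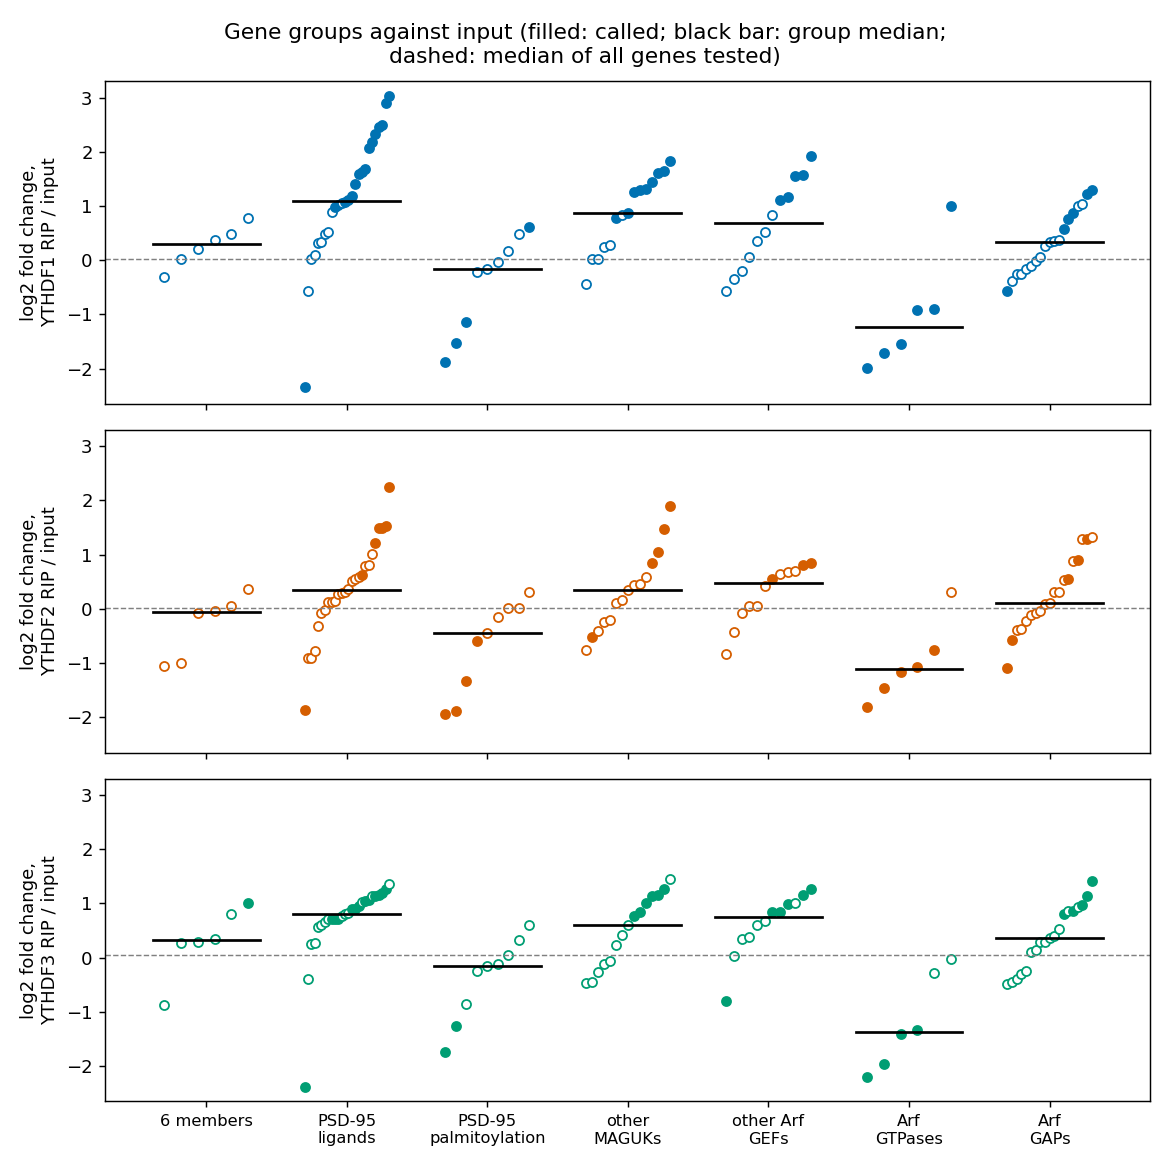
Log2 difference from Input (vertical axis) in the 3 RIPs, for the 6 genes (first column) and each tested gene of the 6 lists. Bars are at the median of each column, and the dashed line is at the median of all genes tested. The Arf GTPase medians lie at -1.23, -1.11 and -1.37, and the PSD-95 ligand medians at 1.09, 0.34 and 0.81.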

How the data were processed

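RNA of 12 libraries (4 groups of 3) was analysed. The authors extracted UMIs with UMI-tools 1.1.1, trimmed with cutadapt 3.4, aligned to mm10 with STAR 2.7.7a, removed duplicates and deposited raw counts (featureCounts 2.0.1), counted by strand over exons with reads that map to several places or genes included, so reads of similar paralogs could be shared. Deposited tables of the authors' own comparisons gave gene symbols only, and their fold changes and p-values were not used. The genes and lists were chosen with earlier results of these data known.

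Counts were tested with edgeR 4.0.16 (quasi-likelihood, TMM, 12 libraries, 4 groups; R 4.3.3) in the 17126 genes whose mean normalized count reached 10, adjusted by Benjamini-Hochberg. CPM are TMM-normalized. A call needed an adjusted p of at most 0.05 and a log2 difference of 0.32 against Input or a 2-fold difference between RIPs. Errors of log2 differences are SE. The methods call the replicates biological, but the labels do not say that they were separate cultures, so p-values measure the spread between these libraries. Same-number libraries of YTHDF3 and Input, which by the methods shared a lysate, deviated together (correlation 0.829, 0.528 and 0.804). Their fit with the replicate number as a block uses those 6 libraries only. YTHDF1 and YTHDF2 libraries did not pair with Input in this way (-0.32 to 0.18, below 0 for replicates 2 and 3), and between YTHDF1 and YTHDF2 the correlations were 0.0590, 0.544 and 0.348. Whether numbers 2 and 3 name the same lysate in all groups is therefore uncertain, which limits any block that spans these groups. All 6 genes were reported, and the 2 highest and the lowest gene of each list in each RIP, except 1 gene that is not reported here. DESeq2 1.42.0, other scalings, filters and fits with a library left out were alternatives. The length trend was a loess fit over all genes, subtracted. The code was also run on simulated counts that had less spread than the data and no shared lysates. That run does not measure error rates in these libraries. Transcripts and windows are from GENCODE M21 (GRCm38), and the motif was chosen after the data were seen.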

Additional observations from a re-analysis of the deposited data

Results flagged for a closer look

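Each value here is a log2 difference between 2 RIPs that was itself tested and called by edgeR (adjusted p of at most 0.05 and at least 2-fold). Only the 6 genes and the list genes named above as highest or lowest against Input are covered. Other list genes were called between RIPs as well and are not given. Over all genes, 11.4% were called higher and 6.1% lower with YTHDF1 than with YTHDF2. Against YTHDF3 the shares were 10.8% and 3.63%. Dlg4 was higher with YTHDF1 than with YTHDF2 (1.44) and YTHDF3 (1.254). The call against YTHDF2 was lost in 3 of 12 fits that left out 1 library and 3 of 11 other alternatives, and the call against YTHDF3 in 8 of 12 and 8 of 11, with library size scaling and removal of the length trend among them for both. Its PSD-95 ligand Nlgn3 was higher with YTHDF1 than with either (2.40 and 2.32), and so was the MAGUK gene Mpp6 (2.05 and 1.57). The adhesion genes Lrfn1 (1.07) and Lrfn5 (1.27) and the GTPase gene Arf6 (1.02) were higher with YTHDF1 than with YTHDF3. Abhd17c (1.05), Psd3 (1.94) and Arfgef3 (1.87) were higher with YTHDF1 than with YTHDF2, and Cyth1 was lower (-1.04). Groups of 3 libraries are too small for a test of single outlying libraries, and none was made.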

How the results depend on the processing

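Of 870 values for log2 differences under alternatives, 59 turned their sign, none of them for a called difference other than Dlg1 and Dlg2 in the same-number fit. The cause was not tested. Scaled by library size alone, YTHDF1 against Input gave Dlg1 -0.39, Dlg4 -0.045 and Iqsec2 -0.18, YTHDF2 against Input Dlg3 0.027, YTHDF1 against YTHDF2 Iqsec1 -0.031 and Iqsec2 -0.17, and YTHDF1 against YTHDF3 Dlg3 -0.50. Dlg1 in YTHDF1 against Input was also -0.016 with DESeq2 size factors, -0.015 with DESeq2, -0.019 with no filter on low counts, -0.095 with a minimum mean count of 50, -0.23 with TMM over protein-coding genes (there also Iqsec2 -0.048, and Dlg1 -0.059 with YTHDF2) and -0.090 in a fit of 2 groups. With no filter Dlg1 was -0.053 in YTHDF2 against Input and 0.034 in YTHDF1 against YTHDF2. With the length trend removed, and with a replicate block added in parentheses, YTHDF1 against Input gave Dlg1 -0.91 (-0.92), Dlg4 -0.78 (-0.78), Iqsec1 -0.24 (-0.29) and Iqsec2 -0.32 (-0.33), YTHDF2 against Input Dlg1 -0.35 (-0.35) and Iqsec1 -0.065 (-0.086), YTHDF3 against Input Dlg1 -0.25 (-0.25) and Dlg2 -0.38 (-0.39; -0.40 in the same-number fit), YTHDF1 against YTHDF2 Dlg2 -0.17 (-0.16) and Iqsec1 -0.17 (-0.20), and YTHDF2 against YTHDF3 Dlg4 0.0022 (not reversed with the block). Leaving out 1 library, Dlg1 ran from -0.22 to 0.13 in YTHDF1 against Input, -0.25 to 0.073 in YTHDF1 against YTHDF2 and -0.11 to 0.16 in YTHDF2 against Input, Dlg3 from -0.10 to 0.47 in YTHDF1 against YTHDF3 and -0.26 to 0.10 in YTHDF2 against Input, Dlg4 from -0.031 to 0.60 in YTHDF1 against Input and -0.49 to 0.14 in YTHDF2 against YTHDF3, and Iqsec2 from -0.053 to 0.37 and -0.29 to 0.13 in YTHDF1 and YTHDF2 against Input. The number of the 6 genes called moved from 0 in YTHDF2 against Input to 1 (DESeq2 size factors, library size, minimum of 50, 2 groups) or 2 (protein-coding TMM, no filter, length trend with or without block, DESeq2), from 1 in YTHDF3 against Input to 2 (DESeq2 size factors, no filter, minimum of 50, 2 groups, DESeq2) or 3 (library size), from 0 in YTHDF1 against Input to 2 (length trend with or without block), from 1 in YTHDF1 against YTHDF2 to 0 (library size, length trend with or without block), from 1 in YTHDF1 against YTHDF3 to 0 (protein-coding TMM, minimum of 50, 2 groups, either block) or 3 (library size), from 0 in YTHDF2 against YTHDF3 to 1 (DESeq2 size factors, protein-coding TMM, minimum of 50, 2 groups, DESeq2) or 2 (library size, no filter), and from 1 among the 3 RIPs to 2 (DESeq2 size factors, protein-coding TMM, minimum of 50, length trend with or without block), 3 (no filter) or 4 (library size). With the length trend removed, with or without block, some counts stayed at 1 while the gene changed. In YTHDF3 against Input the call was Dlg4 lower (-1.52, edgeR adjusted p = 0.00565 without block) in place of Iqsec1 higher. In YTHDF1 against YTHDF3 it was Dlg2 lower (-1.29, edgeR adjusted p = 0.0185 without block) in place of Dlg4 higher. The 2 calls in YTHDF1 against Input were Dlg1 and Dlg2, both lower (-0.91 and -1.67 without block). Leaving out 1 library gave 0 to 1 in YTHDF1 against Input, YTHDF2 or YTHDF3 and in YTHDF2 against YTHDF3, and 0 to 2 in the other 2 comparisons with Input and among the RIPs. The same-number fit, whose alternatives were chosen after seeing the data, called 3 with protein-coding TMM, 4 with DESeq2 size factors or the length trend removed, 6 with library size, and 4 to 6 without 1 pair, against 5. Same-number correlations with YTHDF1 or YTHDF2 were not all over 0.1, and these numbers are treated as shared numbers only. In fits of 2 groups, adding the replicate block took the calls over all genes from 7453 to 5426 for YTHDF1 against Input (9076 with all libraries), from 1535 to 419 for YTHDF1 against YTHDF3 (2479), from 1313 to 393 for YTHDF2 against YTHDF3 (874), from 7935 to 11719 for YTHDF3 against Input (6757) and from 2417 to 3128 for YTHDF1 against YTHDF2 (2994). In these blocked fits Dlg1 was -0.10 in YTHDF1 against Input, and Dlg4 was 1.37 (edgeR adjusted p = 0.00671, 0.0435 unblocked) against YTHDF2 and 1.04 (0.320, not called; 0.137 unblocked) against YTHDF3. Other counts over all genes that moved were YTHDF1 against YTHDF3 to 4207 (library size) and 1535 (2 groups), and YTHDF2 against YTHDF3 to 1812 (no filter), 1313 (2 groups), 1317 (DESeq2) and 179 to 1315 (without 1 library, lowest without YTHDF3 replicate 2). Library size scaling shifted the median of all genes by -0.40 and 0.33 for YTHDF1 and YTHDF3 against Input and by -0.48, -0.73 and -0.26 between RIPs, and protein-coding TMM by -0.25, -0.11, -0.14 and -0.21 for YTHDF1 and YTHDF2 against Input and YTHDF1 against YTHDF2 and YTHDF3. The share of higher among all calls, 51.4% for YTHDF1, 41.7% for YTHDF3, 65.1% for YTHDF1 against YTHDF2, 74.9% for YTHDF1 against YTHDF3 and 77.3% for YTHDF2 against YTHDF3, became 33.2%, 61.4%, 27.6%, 18.2% and 40.2% with library size. With protein-coding TMM it was 40.0%, 53.4% and 58.4% for YTHDF1 against Input, YTHDF2 and YTHDF3, and with the length trend removed 54.6% for YTHDF1 against YTHDF3 and 59.1% for YTHDF2 against YTHDF3. Counts of 208 or more per gene and library left the spread between 3 replicates, not depth, as the main limit, least so for Dlg1.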
